A study of Mus musculus with 20 samples.

Results

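The comparison described here asks what the loss of Plin2 did to gene expression in the liver of fed mice. It set 5 liver libraries whose sample group reads only "Fed" against 5 libraries of Plin2+/+ fed mice, 10 of the 20 libraries of the study. The labels of the first group give no genotype; only Plin2+/+ and Plin2-/- mice appear in the design, and the group was read as Plin2-/- by elimination and is called Plin2-null. All mice were female, 15 weeks old and of the C57BL/6N strain, and the fed groups had chow. The other 10 libraries came from Plin2+/+ and Plin2-null mice fasted for 24 h, 5 of each; they share no library with the fed groups and are given beside the fed values where a gene was called. The sources used here say neither which cells lacked Plin2 nor how the allele was made, and they tie no library number to an animal, litter or day, so the p-values rest on the variation among these libraries, which may be technical.

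PLIN2 is a perilipin, a family of proteins that coat cytosolic lipid droplets and limit the access of lipases to the stored triglyceride. In hepatocytes it is a major droplet coat protein, and its messenger RNA rises when fatty acids load the hepatocyte, as in fasting. Mice without it are known for resistance to fatty liver.

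The 10 fed libraries held 35947930 to 53397037 counts each. The list of hepatocyte markers had 9 members tested, and Alb, the gene of serum albumin, stood at 91121 ± 19052.5 CPM (counts per 1000000, scaled to the library size by the trimmed mean of M-values) in Plin2+/+ and 76516 ± 7193 CPM in Plin2-null livers (SD, n = 5 each). No read fell on 4 of 4 Y-linked genes in any fed library. Along the first principal component of the fed libraries, which held 22% of the variance, Plin2+/+ fed replicate 4 stood apart at -62.6, while the other 9 lay between -9.31 and 22.8.

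Plin2 itself was examined first. In Plin2+/+ fed livers it was at 310, 274, 203, 196 and 319 CPM in replicates 1 to 5. In Plin2-null fed livers it was at 32.1, 15.3, 16.8, 17.8 and 16.7 CPM. All 5 Plin2-null values were under the lowest Plin2+/+ value, and replicate 1 of the Plin2-null group stood above the other 4. The means were 260 ± 58.2 and 19.7 ± 6.96 CPM (SD, n = 5 each), and Plin2 fell by 3.72 ± 0.22 (SE) on the log2 scale, with an adjusted p of 1.30e-09 from edgeR's quasi-likelihood test with Benjamini-Hochberg adjustment. Reads remained: the Plin2-null fed libraries held 689 to 1463 counts on Plin2, a minus-strand gene of chromosome 4, positions 86648386 to 86670060 (GENCODE M21, GRCm38). Which part of the gene these reads cover cannot be told from gene-level counts.

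Of 16312 genes tested in fed livers, edgeR called 3 at an adjusted p under 0.05 (0.0184% of all genes), with 2 higher (0.0123%) and 1 lower (0.00613%) in Plin2-null livers. Beside Plin2 they were Mpdz and the pseudogene Gm13453. The genes with an unadjusted p under 0.05 numbered 694 (4.25%), of which 354 were higher and 340 lower in Plin2-null livers, and 143 genes (0.877%) had groups that did not overlap. DESeq2 called 7 genes and limma voom 4, and both called the same 3 among them. In fasted livers the genotype difference was called for 528 genes (3.24%), a count that ran from 13 to 1794 when single fasted libraries were left out. No gene was called for a difference between the fed and the fasted genotype effect by edgeR, where 2250 genes had an unadjusted p under 0.05; DESeq2 called 63 and limma voom 2.

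Mpdz encodes a scaffold protein with many PDZ domains that sits at cell junctions. In Plin2+/+ fed livers it was at 22.6, 25.0, 29.8, 29.4 and 32.2 CPM, and in Plin2-null fed livers at 61.8, 54.7, 56.5, 61.2 and 61.3 CPM. The groups did not overlap, and the spread within each was a small part of the gap between them. Mpdz rose by 1.09 ± 0.11 (SE) on the log2 scale, with an edgeR adjusted p of 7.75e-06. In fasted livers it was 1.68 ± 0.11 higher (edgeR adjusted p = 3.81e-09), and the difference between the states, 0.59 ± 0.15 (SE), was not called (edgeR adjusted p = 0.215). Mpdz shares chromosome 4 with Plin2 and lies 5.30 Mb away, on the minus strand from 81278500 to 81442815.

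Gm13453 is a processed pseudogene of 357 bases of chromosome 2 (minus strand, 40127504 to 40127860). It held 1, 3, 1, 2 and 7 counts in the Plin2+/+ fed libraries and 173, 153, 122, 24 and 98 counts in the Plin2-null fed libraries. The groups did not overlap, and replicate 4 of the Plin2-null group was the lowest of its 5. Gm13453 rose by 5.40 ± 0.50 (SE) on the log2 scale, with an edgeR adjusted p of 2.52e-06; with so few Plin2+/+ counts the fold is wide, with a 95% interval of 20.7-fold to 86.7-fold. In fasted livers it held 1, 2, 1, 0 and 2 counts in Plin2+/+ and 93, 82, 132, 236 and 124 counts in Plin2-null libraries, and was called again (edgeR adjusted p = 3.11e-07).

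Gm13453 has a near-identical copy elsewhere in the genome. In the GENCODE M21 transcripts, 355 of its 357 bases (99.44%) equal positions 147 to 503 of the 1135-base transcript of Atp6v1g1, a subunit of the vacuolar proton pump that acidifies lysosomes. Atp6v1g1 lies on chromosome 4 from 63544772 to 63550750 on the plus strand, on the chromosome of Plin2 and 23.1 Mb from it. The 2 differing bases, counted from 1 at the start of the aligned stretch with the Atp6v1g1 base first, are G92A and C182A. They are shown because a read that lies wholly within the aligned stretch can be told apart only if it covers one of them. The differing base is in capitals. Each window is 61 bases, from position 62 to 122 and from 152 to 212, 5′ to 3′ on the transcript strand (GRCm38).
Atp6v1g1, first window: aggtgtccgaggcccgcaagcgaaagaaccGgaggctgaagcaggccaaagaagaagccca
Gm13453, first window: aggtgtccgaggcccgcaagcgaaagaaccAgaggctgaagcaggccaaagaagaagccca
Atp6v1g1, second window: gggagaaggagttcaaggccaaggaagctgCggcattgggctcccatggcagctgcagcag
Gm13453, second window: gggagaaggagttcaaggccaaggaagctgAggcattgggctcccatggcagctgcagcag

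The value of Gm13453 is therefore uncertain as a level of that pseudogene. Atp6v1g1 was at 26.7 ± 3.76 CPM in Plin2+/+ against 28.0 ± 3.47 CPM in Plin2-null livers (SD, n = 5 each), a log2 difference of 0.07 ± 0.12 (SE) that was not called, with a 95% interval of 0.885-fold to 1.24-fold. Gm13453 made up 0.195% ± 0.138 of the summed CPM of both in Plin2+/+ and 7.83% ± 3.33 in Plin2-null livers (SD, n = 5 each). Which of the 2 genes the reads came from was not tested, since the reads were not used here.

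**Figure D1:**
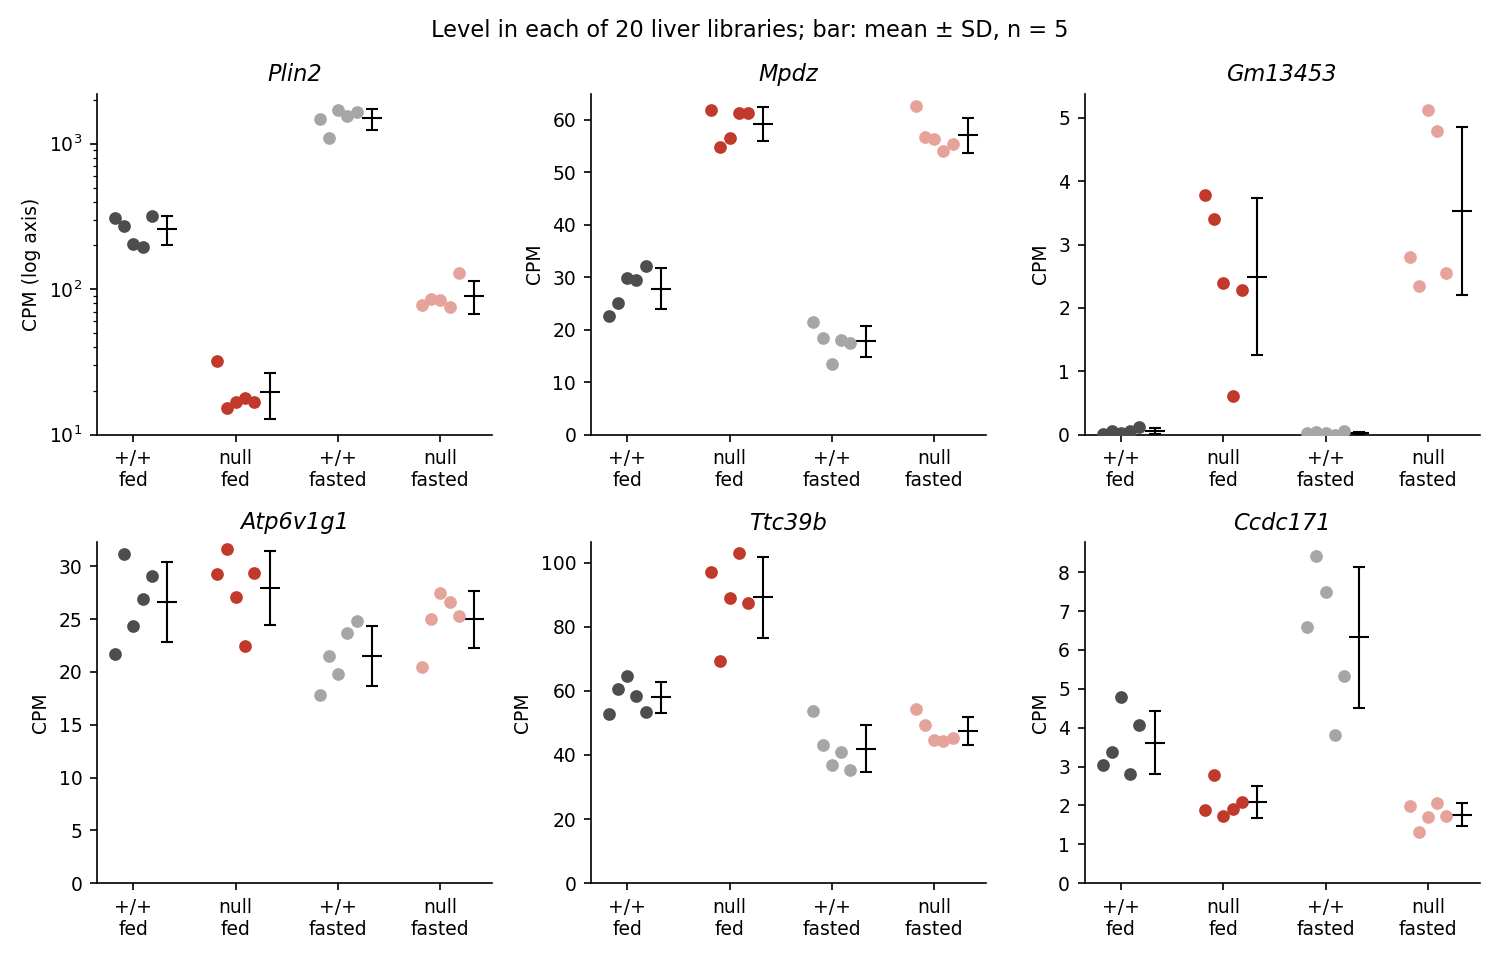
CPM of 6 genes in each library (points) of the 4 groups, with mean and SD (bars, n = 5); the axis is logarithmic for Plin2 and starts at 0 for the others. Plin2, Mpdz and Gm13453 do not overlap between the fed groups, Atp6v1g1 does, and Ttc39b is separate in fed but not in fasted livers.

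Both Mpdz and Atp6v1g1 lie on chromosome 4, so the genes there were described by their distance from Plin2. Chromosome 4 had 981 genes tested, of which 2 were called and 50 had an unadjusted p under 0.05 (5.1%, against 4.2% of genes elsewhere). Of the 19 genes of the genome with an unadjusted p under 0.001, 9 lay on chromosome 4 (0.917% of its genes), and the other 10 were among 15331 genes elsewhere (0.0652%). Groups that did not overlap were seen for 1.63% of genes on chromosome 4 and 0.828% elsewhere. These counts hold Plin2 itself and 29 genes of the cluster of major urinary proteins (Mup). Without them, 40 of 951 genes of chromosome 4 had an unadjusted p under 0.05 (4.21%), near the share elsewhere, 5 had one under 0.001 (0.526%) and 1.37% had groups that did not overlap. With Plin2 left out, 4 of 26 genes within 5 Mb of it had an unadjusted p under 0.05 (15.4%), and from 5 to 10 Mb, 2 of 22 (9.09%). From 10 to 25 Mb it was 13 of 131 (9.92%), or 9 of 122 (7.38%) without Mup genes. From 25 to 50 Mb it was 15 of 478 (3.14%) and farther away 15 of 323 (4.64%). In fasted livers the shares in the same order were 26.9%, 27.3%, 32.1%, 26.8% and 23.2%, against 24.3% of all genes. Of the 4 genes within 5 Mb, 1 had such a p in both states with the same sign, and of the 2 from 5 to 10 Mb, 1 had.

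Ttc39b, a gene tied to cholesterol transport and the turnover of a sterol-sensing nuclear receptor, lies 3.39 Mb from Plin2. It was at 52.9, 60.5, 64.5, 58.3 and 53.4 CPM in Plin2+/+ fed livers and at 96.9, 69.3, 89.0, 103.0 and 87.4 CPM in Plin2-null fed livers. The groups did not overlap, yet the difference of 0.62 ± 0.12 (SE) on the log2 scale missed the threshold of edgeR with an adjusted p of 0.0714; DESeq2 called it. In fasted livers the difference was 0.18 ± 0.12 (unadjusted p = 0.140). Ccdc171, 2.96 Mb from Plin2, was at 3.61 ± 0.81 CPM in Plin2+/+ against 2.08 ± 0.41 CPM in Plin2-null livers (SD, n = 5 each) with no overlap; its log2 difference of -0.80 ± 0.20 was not called in fed livers, while that of -1.84 ± 0.21 in fasted livers was.

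Rps6, a protein of the small ribosomal subunit and the nearest of these to Plin2 at 0.197 Mb, was at 161, 148, 152, 157 and 157 CPM against 133, 135, 126, 101 and 131 CPM, with no overlap. Its log2 difference was -0.30 ± 0.11 (SE), with an unadjusted p of 0.00914 and an edgeR adjusted p of 1. The remaining neighbours within 10 Mb with an unadjusted p under 0.05, neither of them called, were Caap1 at 0.36 ± 0.15 and Adamtsl1 at -0.78 ± 0.37 (log2 difference, SE).

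A cluster of major urinary protein genes (Mup), which encode pheromone carriers made by the liver, lies 24.5 to 26.7 Mb from Plin2. Many of its members are near-identical, so counts on single members are uncertain. Of 29 Mup genes and pseudogenes tested, 0 were called, 6 were higher and 3 lower in Plin2-null livers at an unadjusted p under 0.05, and the interval of 1 lay within a 2-fold change. Of all genes tested, 4.25% had such a p and 83.1% such an interval. Mup-ps14 held 3, 1, 1, 0 and 10 counts in Plin2+/+ and 16, 62, 27, 51 and 29 counts in Plin2-null fed livers, a log2 difference of 3.77 ± 0.69 (SE) with an edgeR adjusted p of 0.0714, which DESeq2 and limma voom called. Mup17 ranged from 0.15 to 370 CPM in Plin2+/+ and from 47.1 to 2470 CPM in Plin2-null fed livers, so the groups overlapped. The summed CPM of all 29 was 4163 ± 2170 in Plin2+/+ and 5415 ± 1350 in Plin2-null livers (SD, n = 5 each), a difference smaller than the spread.

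**Figure D2:**
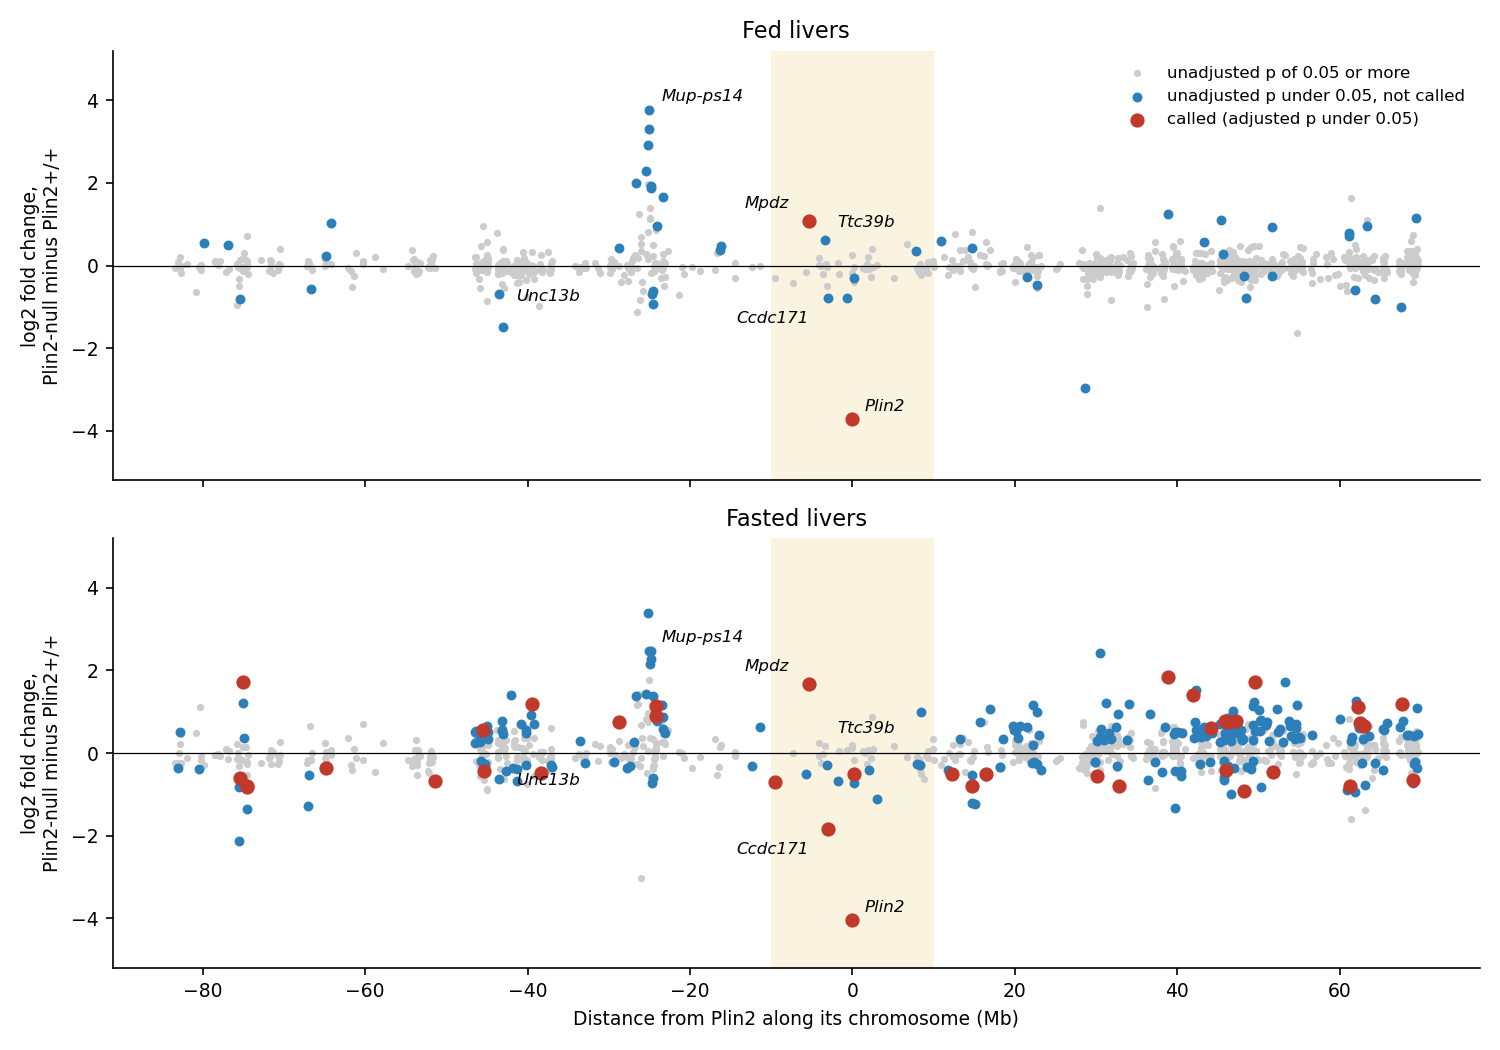
Log2 difference between genotypes of each of the 981 tested genes on the chromosome of Plin2 against the distance from Plin2 in Mb, in fed (top) and fasted (bottom) livers; the shaded band marks 10 Mb on either side. In fed livers Plin2 and Mpdz are called, and the Mup cluster is the column of points near -25 Mb.

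For most of the 16312 genes tested, of 55487 gene identifiers, the data set a limit on the size of a change. No limit was set for the identifiers that the filter on low counts removed. The 95% interval of the fold between genotypes lay within a 2-fold change for 13552 genes (83.1%) and within a 1.5-fold change for 9655 genes (59.2%). The intervals of 2752 genes crossed a 2-fold bound, so whether they changed by that much is undetermined, and those of 8 genes lay wholly beyond 2-fold. Those 8 were Plin2, Gm13453, Mup-ps14, Mup-ps12, Xlr4a, Slc6a21, Fut1 and Cyp4a12a, and only the first 2 of them were called. The median log2 difference over all genes was 0.00184, with quartiles of -0.108 and 0.121.

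The limit depended on the level of the gene. Among 6132 genes at 10 to 100 CPM, 97.3% had an interval within 2-fold and 88.4% within 1.5-fold, and the median half-width of the interval was 1.19-fold. Among 3708 genes at 0.1 to 1 CPM the shares were 44.8% and 2.8%, with a median half-width of 1.69-fold. Of the 96 genes at 1000 CPM or more, 89.6% lay within 2-fold, a smaller share than at 10 to 100 CPM, with a median half-width of 1.24-fold. Over the 12541 genes with a mean of at least 1 CPM, 11889 (94.8%) lay within 2-fold, and 56 had an estimate of 2-fold or more, 30 higher and 26 lower.

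**Figure D3:**
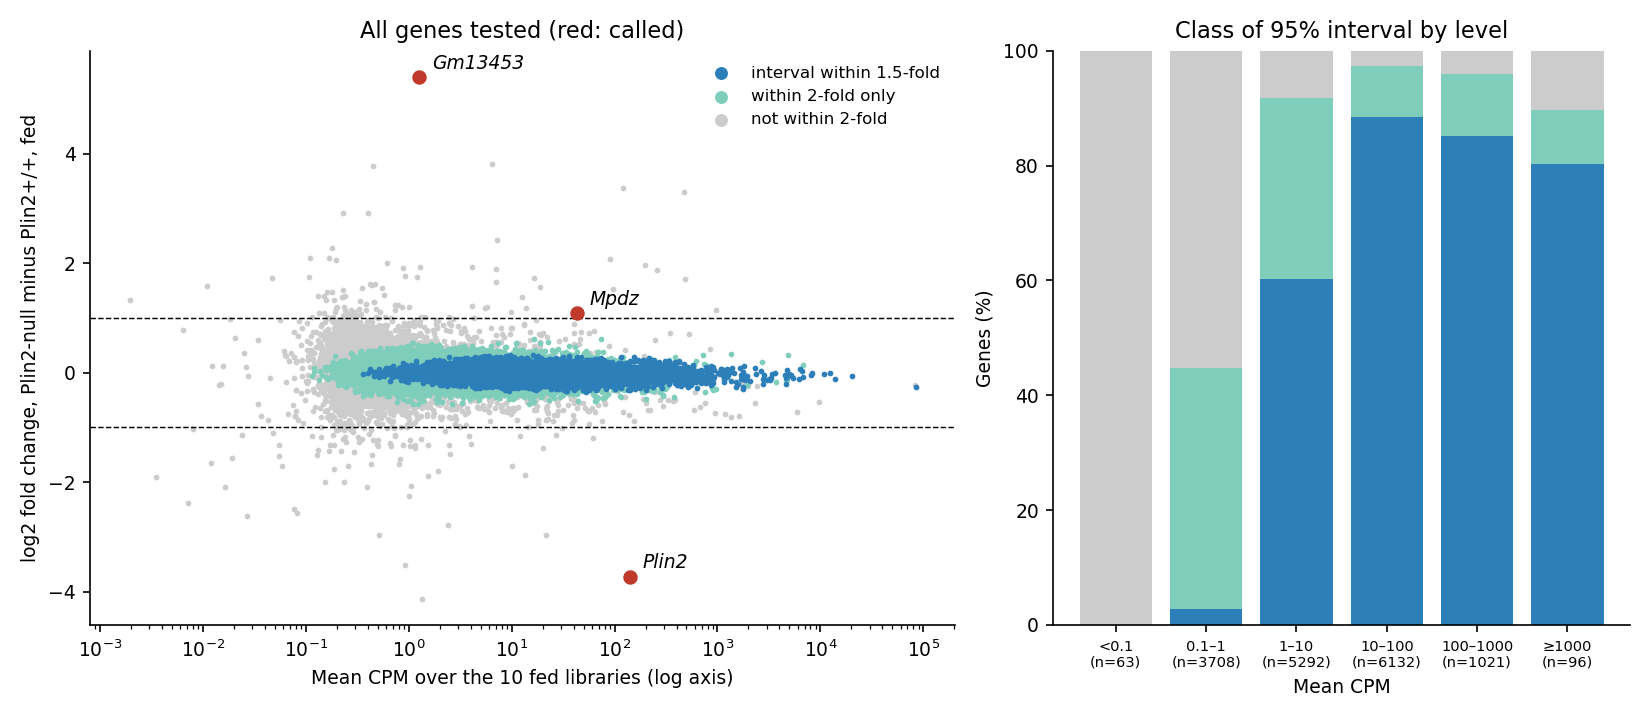
Left, the log2 difference between genotypes in fed livers against the mean CPM of each of 16312 genes, coloured by whether the 95% interval lies within 1.5-fold, within 2-fold or neither, with the 3 called genes in red and dashed lines at 2-fold. Right, the share of genes in each class by level: 97.3% lie within 2-fold at 10 to 100 CPM and 44.8% at 0.1 to 1 CPM.

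The genes of lipid droplets and lipid metabolism were described by lists. None of their members was called, against 0.0184% of all genes, and the values below are levels and differences that did not pass the test. Of the other perilipins, Plin3, the broadly expressed member that moves to droplets from the cytosol, was at 14.2, 24.6, 21.2, 21.5 and 30.0 CPM in Plin2+/+ and 18.3, 26.6, 26.0, 19.8 and 18.3 CPM in Plin2-null fed livers. The groups overlapped throughout, and the interval of the fold, 0.739 to 1.29, lay within 1.5-fold. Plin5, the perilipin of oxidative tissues that links droplets to mitochondria, was at 13.5 ± 3.09 and 12.0 ± 3.30 CPM (SD, n = 5 each), with an interval of 0.653-fold to 1.22-fold. Plin4 ranged from 1.66 to 12.5 and from 2.25 to 8.88 CPM, and its interval, 0.423-fold to 1.66-fold, leaves a loss of more than 2-fold undetermined. Plin1, the perilipin of fat cells, held at most 1 count in any fed library and was not tested.

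Among 14 tested genes of droplet formation, 12 had intervals within 2-fold, and the median log2 difference was -0.109 (all genes: 0.00184); it was -0.0223 with scaling by library size alone and -0.0664 without Plin2-null fed replicate 5. Cideb, which promotes droplet fusion and lipid loading of lipoproteins in hepatocytes, was at 101 ± 11.5 and 98.7 ± 8.42 CPM (SD, n = 5 each), an interval of 0.837-fold to 1.13-fold. Hsd17b13, a droplet enzyme of hepatocytes, was at 248, 225, 245, 301 and 170 CPM in Plin2+/+ and 186, 151, 178, 161 and 176 CPM in Plin2-null fed livers. Only replicate 5 of the Plin2+/+ group reached into the range of the other group, and the log2 difference of -0.48 ± 0.12 (SE) had an unadjusted p of 8.44e-04 and an edgeR adjusted p of 0.742. Fitm1, which helps droplets bud from the endoplasmic reticulum, was low at 1.84 ± 1.09 and 0.796 ± 0.349 CPM (SD, n = 5 each), and its unadjusted p was 0.0339. Without Plin2+/+ fed replicate 4 the genes of the list with an unadjusted p under 0.05 were 4 instead of 2, all lower. Without Plin2+/+ fed replicate 1, 2 or 3, or without Plin2-null fed replicate 3 or 4, only 1 gene had such a p.

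Of 14 genes of triglyceride lipolysis 12 lay within 2-fold, with a median of -0.0854 that was -0.00465 with scaling by library size alone. Pnpla2, the adipose triglyceride lipase, was at 22.7 ± 3.07 and 19.9 ± 3.74 CPM (SD, n = 5 each; interval 0.605-fold to 1.28-fold), and its activator Abhd5 at 23.8 ± 3.63 and 22.4 ± 1.16 CPM (0.817-fold to 1.09-fold). The lipase inhibitor G0s2 ranged from 7.15 to 43.1 and from 10.1 to 39.9 CPM, and its interval, 0.496-fold to 2.33-fold, was the widest of the 14.

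Triglyceride synthesis had 13 genes tested, 10 of them within 2-fold. Dgat2, which adds the last fatty acid, was at 252 ± 36.6 and 238 ± 16.1 CPM, and Gpam, which adds the first one in mitochondria, at 225 ± 19.8 and 212 ± 41.2 CPM (SD, n = 5 each). Gpat4, the enzyme of the endoplasmic reticulum and droplets for the same step, was at 120 ± 23.4 and 96.7 ± 15.6 CPM (SD, n = 5 each; unadjusted p = 0.0349). Lpin1, a phosphatidate phosphatase, was at 15.0, 29.2, 53.9, 259 and 73.5 CPM in Plin2+/+ and between 17.8 and 64.9 CPM in Plin2-null fed livers; replicate 4, the Plin2+/+ library that stood apart, held the high value. Of 15 genes of phospholipid synthesis 14 lay within 2-fold; Pisd, which makes phosphatidylethanolamine in mitochondria, was at 9.80 ± 1.16 and 8.03 ± 0.382 CPM (SD, n = 5 each) without overlap, at an unadjusted p of 0.0212.

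In fatty acid synthesis 17 of 19 genes lay within 2-fold. Fasn, the fatty acid synthase, was at 483 ± 117 and 486 ± 157 CPM (interval 0.678-fold to 1.49-fold), and Srebf1, the transcription factor that drives the pathway, at 133 ± 33.4 and 123 ± 30.7 CPM (SD, n = 5 each). The minor desaturase Scd2 was at 10.8 ± 1.86 and 8.46 ± 1.69 CPM (SD, n = 5 each; unadjusted p = 0.0492). Scd1, the main liver desaturase and the most abundant gene of the list by TPM, ranged from 2850 to 15200 CPM in Plin2+/+ and from 1760 to 5900 CPM in Plin2-null fed livers. Its interval of 0.320-fold to 1.16-fold leaves a fall of more than 2-fold undetermined. In sterol synthesis and uptake 24 of 26 genes lay within 2-fold and 19 were higher, with a median of 0.0969 that was 0.191 when libraries were scaled by their size alone. That direction rested on Plin2-null fed replicate 2: without it the median was -0.0591, with 17 of 26 lower, and without any other single fed library it ran from 0.0198 to 0.249. Hmgcs1, the synthase at the entry of the pathway, was at 726 ± 400 and 979 ± 515 CPM (SD, n = 5 each).

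Mitochondrial fatty acid oxidation was held within narrow limits. All 18 mitochondrial genes tested lay within 2-fold and 17 within 1.5-fold, and 18 of 18 were lower in Plin2-null livers by a small amount, with log2 differences from -0.222 to -0.0634 and a median of -0.123. With scaling by library size alone 2 of the 18 were higher and the median was -0.0388, and 3 were higher without Plin2+/+ fed replicate 1. None of the 18 had an unadjusted p under 0.05. Without Plin2+/+ fed replicate 4, 3 had, all lower, and the median was -0.209. The small lean was not particular to this list. Lower too were 16 of 16 genes of fatty acid uptake and activation (median -0.144) and 17 of 19 of peroxisomal and omega oxidation (-0.136). The same held for 8 of 9 hepatocyte markers (-0.13). Other lists leaned the other way: 19 of 26 sterol genes and 12 of 16 genes of the interferon response were higher. Both of these leans rested on Plin2-null fed replicate 2. Without it 17 of 26 sterol genes were lower, and so were 13 of 16 interferon genes (median -0.193, against 0.121 with all libraries). Cpt1a, the gate of fatty acid entry into mitochondria, was at 305 ± 27.0 and 263 ± 42.3 CPM, and Acaa2, the last enzyme of the cycle, at 468 ± 74.9 and 412 ± 68.1 CPM (SD, n = 5 each).

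Outside mitochondria, 15 of 19 genes of peroxisomal and omega oxidation lay within 2-fold, and 1 had an unadjusted p under 0.05. Leaving out single fed libraries gave 0 to 7 such genes, all lower, with 0 without Plin2+/+ replicate 1. The 7 were reached without Plin2+/+ replicate 4, where all 19 were lower and the median was -0.294 instead of -0.136. Ehhadh, the bifunctional enzyme of peroxisomes, was at 513, 307, 286, 301 and 295 CPM in Plin2+/+ and 321, 233, 253, 241 and 235 CPM in Plin2-null fed livers, with replicate 1 the highest in both groups and an unadjusted p of 0.0213. The omega-hydroxylase Cyp4a14 was at 733 ± 567 and 458 ± 284 CPM (SD, n = 5 each). Fgf21, a fasting hormone of the liver, was below 2 CPM in all 10 libraries. Its interval of 0.252-fold to 1.67-fold leaves a fall of more than 2-fold undetermined.

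Fatty acid uptake and activation had 16 genes tested, 14 of them within 2-fold, and lipoprotein assembly with plasma lipases 18, of which 16 were within 2-fold. Fabp1, the fatty acid binding protein of hepatocytes, was at 3383 ± 1046 and 3316 ± 1157 CPM, and Apoa1, the main protein of high-density lipoprotein, at 4865 ± 1276 and 4376 ± 1122 CPM (SD, n = 5 each). Lpl, lipoprotein lipase, was at 29.0, 23.6, 31.4, 141 and 25.1 CPM in Plin2+/+ and between 15.3 and 43.8 CPM in Plin2-null fed livers, again with the high value in Plin2+/+ replicate 4 (unadjusted p = 0.0494). In glucose and glycogen metabolism 15 of 20 genes lay within 2-fold; Pck1, the gluconeogenic carboxykinase, ranged from 644 to 2640 and from 191 to 1630 CPM, with an interval of 0.323-fold to 1.10-fold. Slc37a4, the glucose 6-phosphate transporter, was at 78.6 ± 11.9 and 58.0 ± 7.40 CPM (SD, n = 5 each) without overlap, at an unadjusted p of 0.0302.

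**Figure D4:**
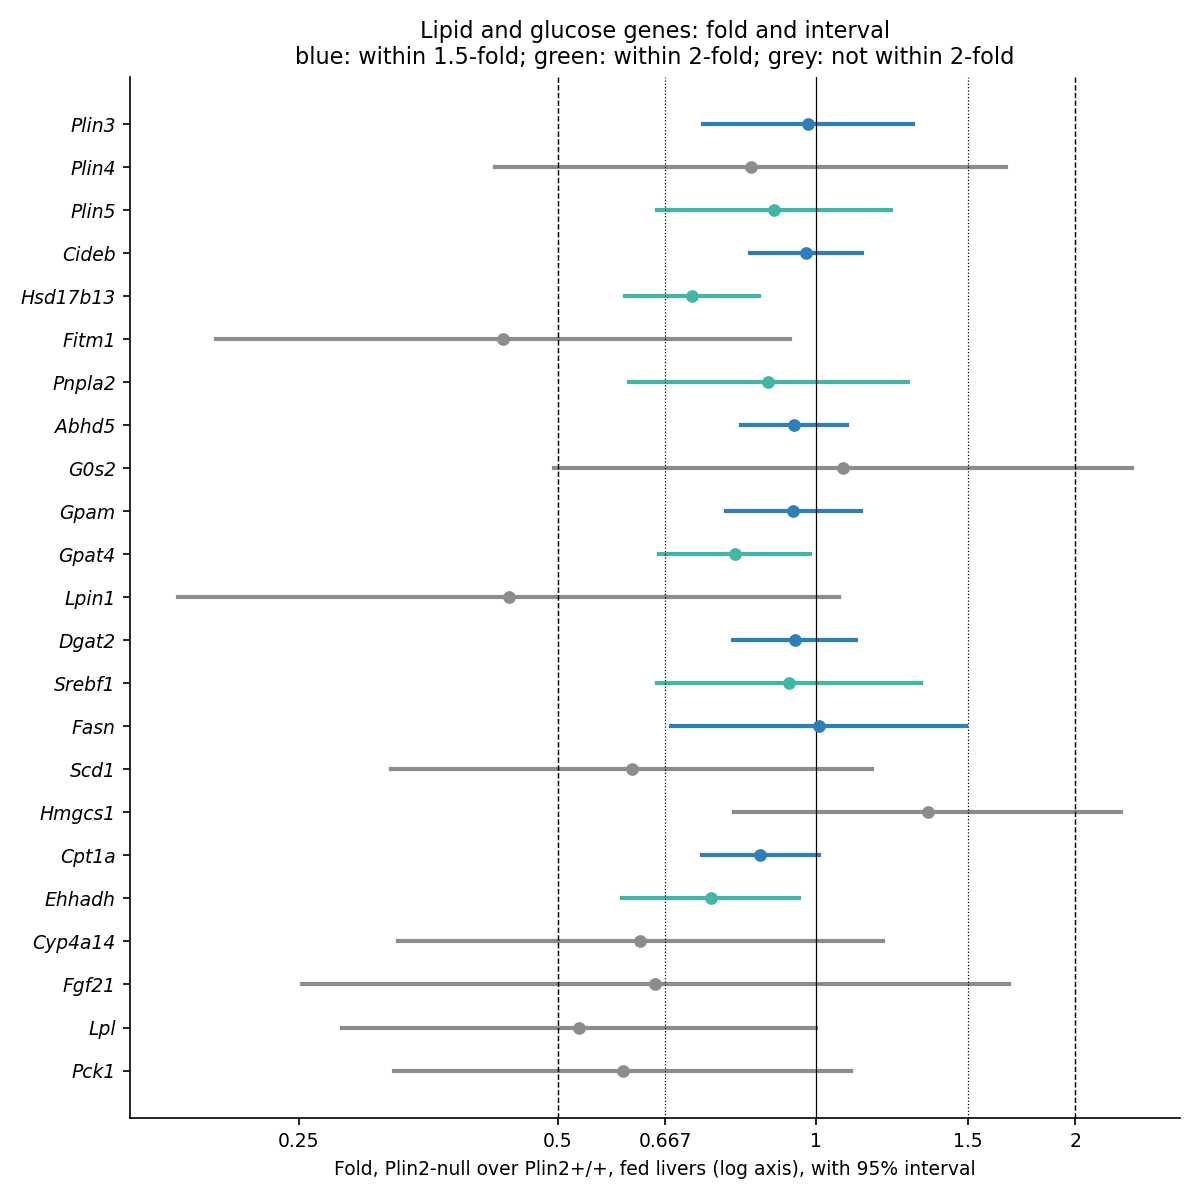
Fold between Plin2-null and Plin2+/+ fed livers (points) with its 95% interval (lines) for 23 genes of lipid and glucose metabolism, on a log axis with dotted lines at 1.5-fold and dashed lines at 2-fold. Cideb, Abhd5 and Dgat2 lie within 1.5-fold, while Lpin1, Scd1, Fgf21 and Pck1 extend past 2-fold on the low side.

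Stress and clock genes had wider intervals. In the unfolded protein response 9 of 16 genes lay within 2-fold, 14 were lower in Plin2-null livers and the median log2 difference was -0.297, which was -0.185 without Plin2+/+ fed replicate 2. Of the 16, 2 had an unadjusted p under 0.05, both lower; leaving out single fed libraries gave 1 to 8, with 8 without Plin2-null replicate 1 or 5. Hspa5, the chaperone BiP, was at 1250, 1290, 625, 708 and 642 CPM in Plin2+/+ and 859, 355, 426, 405 and 1020 CPM in Plin2-null fed livers, so each group held high and low libraries and the groups overlapped. Atf6, a sensor of unfolded protein, was at 91.7 ± 5.51 and 74.6 ± 7.16 CPM (SD, n = 5 each), a log2 difference of -0.30 ± 0.09 (SE) with an edgeR adjusted p of 0.964. Herpud1, which serves the removal of misfolded protein, had a difference of -0.88 ± 0.36 and an unadjusted p of 0.0249.

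In the integrated stress response 6 of 12 genes lay within 2-fold and 11 were lower. The median log2 difference was -0.388, or -0.213 without Plin2+/+ fed replicate 5. Asns, asparagine synthetase, had an unadjusted p of 0.00389 at 0.700 ± 0.529 and 0.276 ± 0.106 CPM (SD, n = 5 each). Plin2+/+ replicate 4 held 1.63 CPM and the next highest 0.602 CPM. Without that replicate the log2 difference of Asns was -0.753. Of 18 clock genes 10 lay within 2-fold and 14 were lower, with a median of -0.249, or -0.183 without Plin2-null fed replicate 4. The activators Arntl (27.9 ± 3.17 and 29.4 ± 1.55 CPM, SD, n = 5 each) and Clock (interval 0.867-fold to 1.23-fold) were held closely, whereas the repressor Per1 ranged from 2.09 to 36.0 CPM in Plin2+/+ and from 2.65 to 9.89 CPM in Plin2-null fed livers (unadjusted p = 0.0110). The clock output gene Dbp was at 4.41 CPM in Plin2+/+ replicate 5 and between 0.489 and 0.777 CPM in the other 9 libraries, and Per3 was at 2.67 ± 1.51 and 1.53 ± 0.482 CPM (SD, n = 5 each). The sources used here do not give the hour at which each mouse was killed.

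Genes whose liver expression differs between the sexes spanned a wider range of log2 differences than any of the other 35 lists, although all mice were female. Among 11 male-biased genes 5 had an unadjusted p under 0.05, each lower in Plin2-null livers, and 4 of the 11 lay within 2-fold, against 4.25% and 83.1% of all genes. Cyp2d9, a cytochrome P450, was at 57.3, 20.3, 18.2, 9.81 and 39.9 CPM in Plin2+/+ and between 8.83 and 14.9 CPM in Plin2-null fed livers. Mup20, the male pheromone darcin, was at 23.6 ± 5.51 and 12.3 ± 4.29 CPM (SD, n = 5 each), with a log2 difference of -0.94 ± 0.28 (SE) and an edgeR adjusted p of 0.964; with Mup21, also lower at an unadjusted p of 0.01002, it is counted in the Mup cluster too. The other 2 were Cyp4a12a, a fatty acid hydroxylase at or below 2.8 CPM in all libraries, and the complement gene C6, at 40.1 ± 8.03 and 31.1 ± 4.56 CPM (SD, n = 5 each).

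Of 12 female-biased genes 5 lay within 2-fold, and 3 were higher and 1 lower at an unadjusted p under 0.05 (1 and 0 without Plin2-null fed replicate 4). Cyp3a44, a cytochrome P450, was at 10.9, 141, 235, 22.1 and 142 CPM in Plin2+/+ and 403, 411, 273, 646 and 287 CPM in Plin2-null fed livers. These groups did not overlap, but the spread among Plin2+/+ libraries exceeded 10-fold, and the log2 difference of 1.87 ± 0.71 (SE) had an edgeR adjusted p of 1. Its near-identical relative Cyp3a41a was at 13.5, 464, 413, 49.3 and 182 CPM and 858, 798, 463, 1000 and 557 CPM, so the value of each is uncertain; replicates 1 and 4 of the Plin2+/+ group were low for both genes. Sult2a1, a sulfotransferase, ranged from 0.123 to 3.15 and from 1.19 to 41.5 CPM, and Hao2, a peroxisomal oxidase, from 1.82 to 61.6 and from 4.42 to 6.82 CPM.

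**Figure D5:**
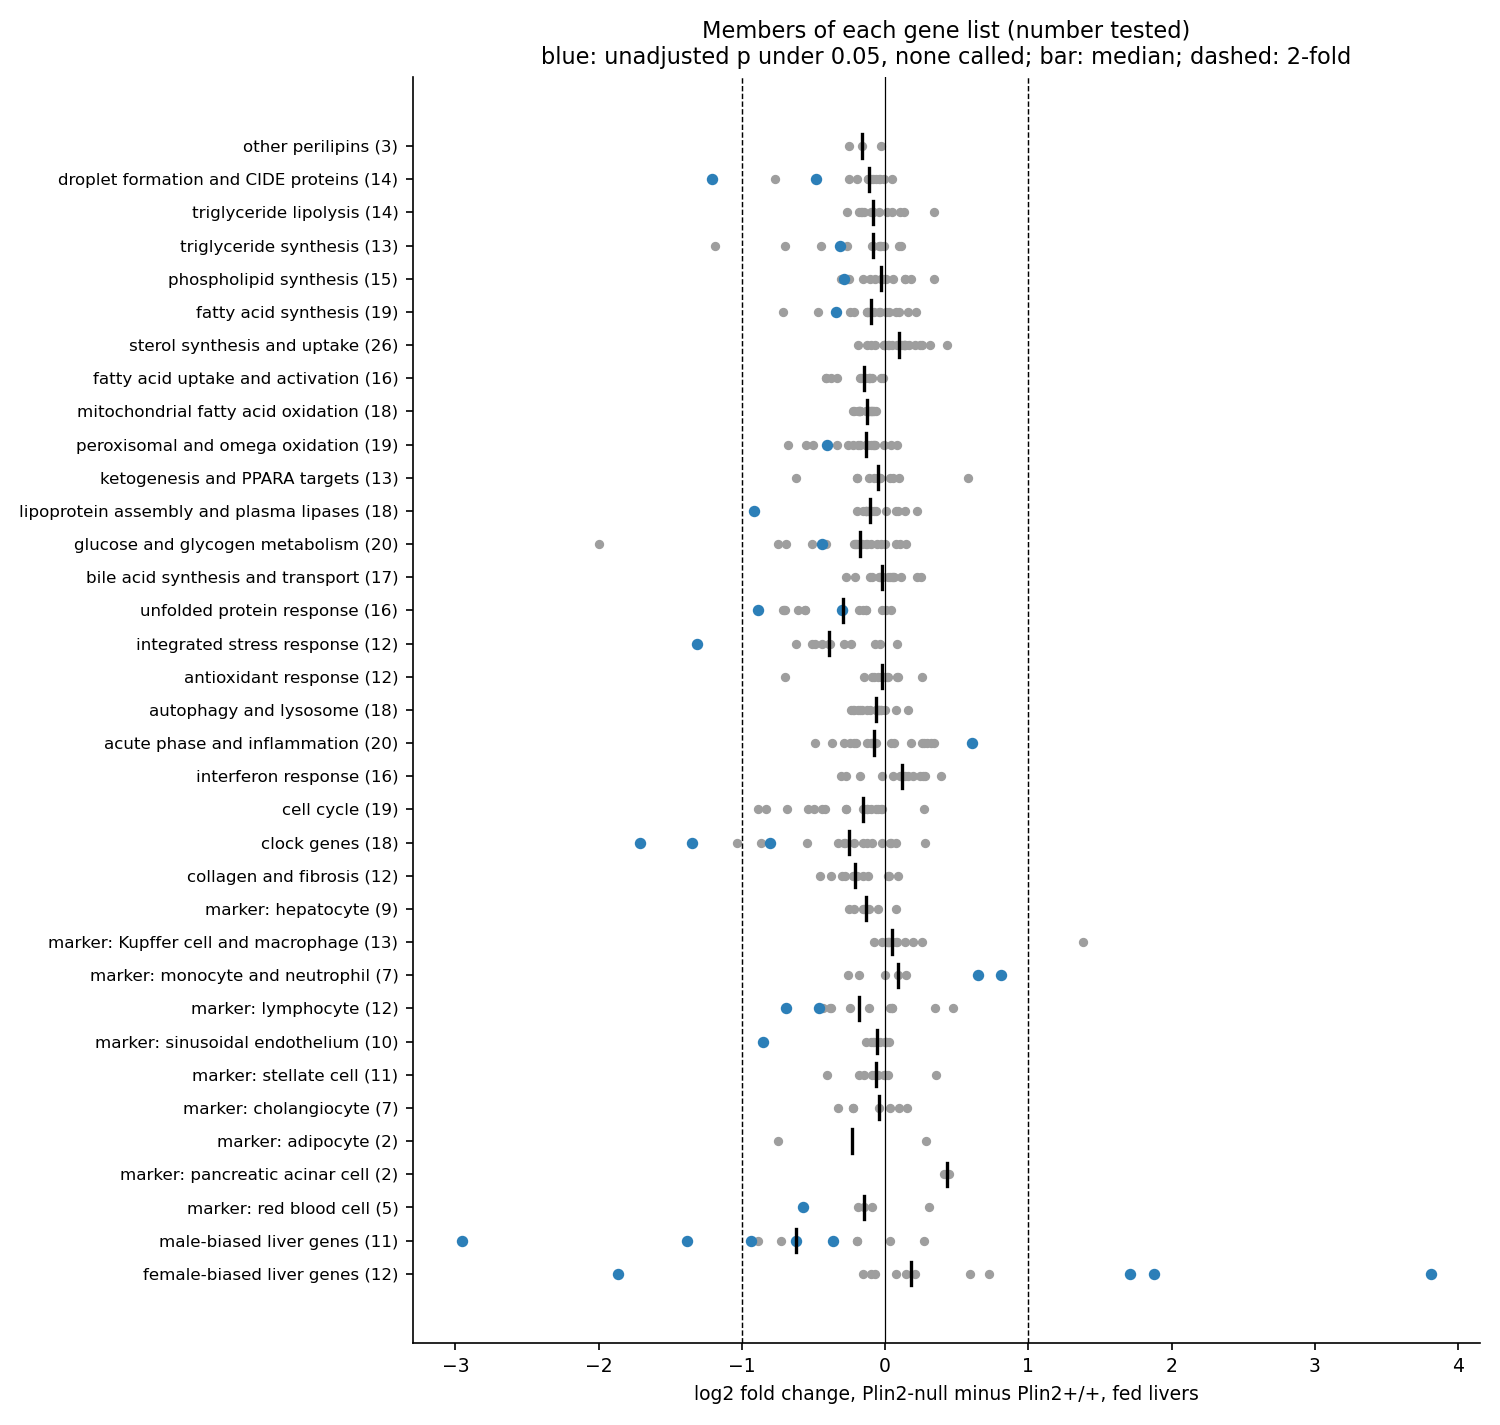
Log2 difference between genotypes in fed livers of every tested member of 35 gene lists (points; blue, unadjusted p under 0.05), with the median of each list (bar) and dashed lines at 2-fold. No member was called; the mitochondrial oxidation genes sit in a narrow band from -0.222 to -0.0634, and the sex-biased genes spread most. The lists of sex chromosome genes and of substrain-variable genes are not drawn.

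Markers of other liver cells were read in the same way, and none was called. Kupffer cell and macrophage markers had 12 of 13 within 2-fold, with summed levels of 639 to 848 CPM in Plin2+/+ and 515 to 1210 CPM in Plin2-null fed livers; Marco, a macrophage scavenger receptor, was at 69.0 CPM in Plin2-null replicate 2 and between 3.53 and 11.9 CPM in the other 9 libraries. Of 7 monocyte and neutrophil markers tested 5 were higher and 2 lower, and Ly6g was at 0 counts in all 10 libraries. S100a8 and S100a9 were higher at an unadjusted p under 0.05 (4.25% of all genes had such a p), at levels of 0.264 to 1.37 CPM. Of 12 lymphocyte markers 7 were lower and 5 higher. Cd3g and Cd4 were lower at an unadjusted p under 0.05. With scaling by library size alone, or without Plin2-null fed replicate 1, none of the 12 had such a p. Sinusoidal endothelium had 9 of 10 markers within 2-fold, and the exception, Lyve1, was at 57.5 CPM in Plin2+/+ replicate 4 and between 10.8 and 18.8 CPM elsewhere; stellate cells had 10 of 11 and bile duct cells 5 of 7 within 2-fold. The red cell gene Alas2 was at 17.7 ± 4.83 and 11.8 ± 1.35 CPM (SD, n = 5 each). In bulk tissue, fewer cells of a type and less RNA per cell cannot be told apart. Among fat cell markers Lep, Cfd and Retn were at 0 counts in all 10 libraries, and among markers of the pancreas Prss2, Pnlip, Amy2a5 and Cela3b were.

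The lowest unadjusted p-values below the 3 called genes were also listed, without a call by edgeR, for genes at 1 CPM or more on average. The 10 highest-ranked among those higher in Plin2-null livers were Ttc39b, Rgs3, Cyp3a63-ps, Ndrg1, Phlda1, Eci3, Rian, Gpatch1, Asap2 and Orm3. The 10 among those lower were Xlr4a, Slc17a8, Unc13b, Ccdc171, Ccdc149, Hsd17b13, Stbd1, Ostc, Rpl37rt and Klf15. Slc17a8, a vesicular glutamate transporter, was at 27.8, 24.0, 14.3, 12.6 and 16.2 CPM in Plin2+/+ and 12.4, 7.34, 7.69, 10.6 and 9.95 CPM in Plin2-null fed livers. The groups did not overlap; its log2 difference was -0.98 ± 0.23 (SE; edgeR adjusted p = 0.599) in fed and -1.04 ± 0.22 in fasted livers, where edgeR called it (adjusted p = 0.0198). Xlr4a is a gene of the X chromosome. It was at 6.69, 4.94, 0.0894, 0.727 and 0.248 CPM in Plin2+/+ and at most 0.257 CPM in Plin2-null fed livers. DESeq2 called it, but the difference rested on the first 2 libraries and the groups overlapped.

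Since the fed and fasted groups share no library, the genotype differences of the 2 states could be set side by side. Of the 694 genes with an unadjusted p under 0.05 in fed livers, 403 (58.1%) had the same sign in fasted livers, against 50.7% of all 16312 genes. At an unadjusted p under 0.05 in both states, 92 had the same sign and 44 the opposite sign, and 20 of the 694 (2.88%) were called in fasted livers with the same sign. Over all 16312 genes, 2045 had the same sign and 1917 the opposite sign at a fasted unadjusted p under 0.05, and 283 (1.73%) were called there with the same sign. Off chromosome 4 the share with the same sign was 57.5% of 644. Across the 694 genes the correlation of the 2 log2 differences was r = 0.399, and 0.308 off chromosome 4, against 0.13 over all 16312 genes. The 694 were picked by their fed p, which leaves out small differences, so their r is not comparable with that of all genes. The set off chromosome 4 still holds Gm13453, whose reads were not told apart from those of Atp6v1g1 on chromosome 4. These correlations are across genes, which are not independent replicates.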

How the data were processed

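Liver mRNA was sequenced from stranded libraries (per the labels' protocols). Deposited by the authors were raw counts per Ensembl mouse gene and TPM values; reads were aligned with HISAT2 1.2.1 and counted with featureCounts 1.4.6-p1, per the submitters' processing notes, which list GRCh38 although the identifiers are mouse. The sources used here do not give the strand setting of the counting, so overlapping or antisense genes cannot be told apart with certainty. Multi-mapped reads of near-identical genes may be left out of the counts or split. Positions and transcripts came from GENCODE M21 (GRCm38).

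Counts of all 20 libraries were fitted in R 4.3.3 with edgeR 4.0.16 (filterByExpr, TMM, robust glmQLFit, glmQLFTest), with 1 coefficient per group and Benjamini-Hochberg adjustment over 16312 genes. The SE is the log2 difference over the square root of F (for 1361 genes with F under 0.01, from the information matrix), and 95% intervals use the posterior degrees of freedom (median 22.18). No 2 fed libraries of a group agreed within sampling noise (smallest chi-square per degree of freedom 50.7 over 20 pairs). Alternatives were DESeq2 1.42.0, limma 3.58.1 voom, RLE factors, library size alone, 2 filters, limma on log2(TPM + 1) and log2(TPM + 0.1), the fed libraries alone, a GC correction and leaving out each library; the fits were tested on simulated data. No paired analysis was possible because the labels give the groups no shared replicate numbers.

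Genes named were Plin2, every gene called by edgeR, DESeq2 or limma voom, the 10 higher and 10 lower genes of smallest p with at least 1 CPM, neighbours within 10 Mb of Plin2 and list members that are abundant by TPM, have an unadjusted p under 0.05 or describe the list, though not every gene the rule takes is described; genes named for the width of their interval, the Mup cluster and Atp6v1g1 were chosen after their values were seen. The comparison, lists and rules were chosen with earlier results of these data known. Total counts fix the counting error, and the variation among libraries limits the tests. Figures were drawn with matplotlib 3.10.9.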

Additional observations from a re-analysis of the deposited data

Results flagged for a closer look

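Of 172 groups of 5 fed libraries, 2 for each of 86 genes, 22 had a highest or lowest library set apart from the other 4. The gap had to exceed 0.71 of the range of the group, a limit that chance passes about 1 in 20 times for normally distributed values. The CPM were not put on a log scale, and some of the 86 genes were chosen for a small p or a wide interval. The count of 22 can therefore not be compared with that rate. Replicate 1 of the Plin2-null group was the highest for Plin2 (32.1 CPM), Klf15 (55.9 CPM), Cpt1a (337 CPM), Ehhadh (321 CPM), Fgf21 (1.75 CPM) and Per1 (9.89 CPM), 6 genes in all.

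Replicate 4 of the Plin2+/+ group, the library that stood apart on the first principal component, was the highest for Lpin1 (259 CPM), Lpl (141 CPM), Asns (1.63 CPM), Hao2 (61.6 CPM) and Lyve1 (57.5 CPM). Replicate 4 of the Plin2-null group was the lowest for Rps6 (101 CPM) and Scd1 (1760 CPM) and the highest for Cyp4a14 (964 CPM) and Sult2a1 (41.5 CPM).

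In the other Plin2-null libraries, Marco was set apart in replicate 2 (69.0 CPM) and Xlr4a in replicate 5 (0.257 CPM). In the other Plin2+/+ libraries, Ehhadh was set apart in replicate 1 (513 CPM), S100a9 in replicate 2 (0.824 CPM), Sult2a1 in replicate 3 (3.15 CPM), and Dbp (4.41 CPM) and Mup17 (370 CPM) in replicate 5, each as the highest of its group.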

How the results depend on the processing

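Plin2, Mpdz and Gm13453 were called together under all 20 alternatives for fed livers; with single libraries left out the log2 difference of Plin2 ran from -3.97 to -3.64, that of Mpdz from 1.02 to 1.15 and that of Gm13453 from 5.16 to 5.98. The count of calls was 7 with DESeq2, 7 on log2(TPM + 1) and 5 on log2(TPM + 0.1), and 3 to 4 with single libraries left out. The calls that DESeq2 added were Mup-ps14, Slc17a8, Ttc39b and Xlr4a; those on TPM included Gm28020 and Gm7588, at no more than 3 counts in any fed library.

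The count of genes within a 2-fold change was 13030 to 13431 with single libraries left out, 19255 on log2(TPM + 1) and 12188 (93.5% of genes) under the stricter filter; without a filter the share was 44.7%. Scaling by library size alone moved the median of all genes to 0.0866. Of 1709 values for 86 single genes under the alternatives none changed sign with a call and none lost one, and 11 gained a call. Only the 3 called genes had a call to lose, and sign changes without a call were not counted. Such changes occurred: with single libraries left out Marco ran from -0.350 to 1.66, Plin4 from -0.589 to 0.224 and Fasn from -0.136 to 0.138 on the log2 scale.

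The alternatives for fasted livers and the interaction were added after the data were seen. Calls in fasted livers were 1433 with DESeq2, 108 with library size alone, 319 without a filter, 17 on log2(TPM + 1) and 14 on log2(TPM + 0.1), and 13 to 1794 with single libraries left out. Without 1 of Plin2+/+ fasted replicates 1 to 5 in turn they were 89, 13, 84, 963 and 1794, and without Plin2-null fasted replicates 1, 3 or 5 they were 210, 156 and 15. Calls of the interaction were 63 with DESeq2, 2 with limma voom, 1 without a filter, 1 on log2(TPM + 1), 1 on log2(TPM + 0.1) and 0 to 1 with single libraries left out. The causes were not tested. Limits were wider for low counts: 44.8% of genes at 0.1 to 1 CPM lay within 2-fold.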
